A study of Mus musculus with 12 samples.

Results

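Collagens are the rod-shaped, triple-helical proteins of the extracellular matrix, and the genes of their α chains were described here in mouse cardiomyocyte RNA. All gene symbols written as Col, a number, the letter a and a number were taken, which gave 44 of the 25239 genes in each of the deposited count tables. They fell into 11 fibrillar genes, 6 genes of the basement membrane network of type IV, 6 genes of the beaded filaments of type VI and 21 others. The study sequenced RNA of cultured heart cardiomyocytes in 12 libraries. Chaf1a, the large subunit of the histone chaperone CAF-1, was deleted with Myh6-Cre, a recombinase driven by a cardiomyocyte promoter, so cells of other types are not its target. The libraries labelled Chaf1a cko came from Myh6-Cre mice with both Chaf1a alleles floxed, and those labelled Ctrl, with the genotype given as WT, came from mice with floxed alleles and no Cre. The floxed alleles were therefore shared by both groups, and the controls did not carry the Cre. Each table held 3 libraries a group: Ctrl and Chaf1a cko in the first set, and Ctrl 3M and Chaf1a cko 3M in the other. The labels do not say what 3M stands for, give no age or sex, and do not say whether libraries came from separate animals, so the tests measure the spread between these libraries.

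In each collagen molecule α chains wind into a triple helix, and chains that join are often encoded by separate genes. Fibrillar collagens, types I and III above all, form the load-bearing fibres between heart muscle cells and are made mainly by fibroblasts. Type IV forms the sheet-like basement membrane that surrounds each cardiomyocyte and underlies the capillary endothelium, while type VI links such membranes to the fibres. The remaining members decorate fibrils, sit in membranes or, like types XV and XVIII, carry an endostatin domain in basement membrane zones.

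The library titles name no batch, and the sets were deposited as separate count tables. Totals ran from 15068468 to 20896673 counts for first-set libraries and from 10569325 to 16445963 for 3M libraries. Values are given as CPM, the counts of a gene per 1e6 counts of its library, scaled by TMM factors, with the standard deviation (SD) over 3 libraries. The target gene was not lower: Chaf1a counts were at 24.6 ± 6.93 CPM in Ctrl and 25.1 ± 3.56 in Chaf1a cko, and at 5.45 ± 3.99 and 6.49 ± 1.61 CPM in the 3M groups. The deleted exons are not named in the labels and the counts cover the whole gene, so these counts did not check the genotypes, and the groups are called by their labels. Cardiomyocyte markers were present throughout (Myh6, the α myosin heavy chain, at 40460 ± 232 CPM in Ctrl). Markers of endothelium were present too (Pecam1 at 469 ± 25.2 CPM in Ctrl), and so were genes of the fibroblast list. Among these, Vim was at 2050.2 ± 58.4 CPM in Ctrl, and Dcn and Lum, described below, were scarcer. The libraries thus held RNA of several cell types. In the first set, between 94.8 and 97.6% of 1523 odorant and other chemoreceptor genes, which heart cells are not known to use, had counts, with a 95th percentile of 5.39 CPM. In the 3M set the share was 1.25 to 1.71%. Col10a1, Col26a1 and Col28a1 lay at or below that percentile in the first set, so their counts there were not above this background. Transcript length was not taken into account, so this does not place the other scarce members clear of background. The 3M table had a further feature: 46.3 to 49.0% of the counts from 1 to 16 were multiples of 4, against 24.3 to 26.9% in the first table. Which step made this is not known from the labels.

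The sequences before the start sites of Col3a1, Col5a1 and Col18a1, and at the start that Col4a1 and Col4a2 share, are shown because these genes passed the test described below. Windows were found for 6 of the 8 genes that passed, without Col1a1 and Col12a1. That of Col1a2, which also passed, is not printed here. Sequences came from RefSeq (GRCm38.p6, the assembly behind mm10), and are written 5′ to 3′ on the gene's strand. Annotated exon bases are left out, except in the shared start, where the first exons overlap. Capitals mark 3 motifs on either strand. The first is CCAAT, which the factor NF-Y is known to bind. Next is TATAAA, a sequence that TATA-binding protein recognises in many core promoters. GGGCGG is the last, a GC box of the kind Sp1 binds.
Col3a1, chr1:45311288-45311537, plus strand: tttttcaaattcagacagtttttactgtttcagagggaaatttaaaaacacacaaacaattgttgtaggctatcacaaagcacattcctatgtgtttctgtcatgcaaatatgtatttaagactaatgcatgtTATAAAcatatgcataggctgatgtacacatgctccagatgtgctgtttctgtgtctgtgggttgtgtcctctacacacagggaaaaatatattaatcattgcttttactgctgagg
Col5a1, chr2:27886175-27886424, plus strand: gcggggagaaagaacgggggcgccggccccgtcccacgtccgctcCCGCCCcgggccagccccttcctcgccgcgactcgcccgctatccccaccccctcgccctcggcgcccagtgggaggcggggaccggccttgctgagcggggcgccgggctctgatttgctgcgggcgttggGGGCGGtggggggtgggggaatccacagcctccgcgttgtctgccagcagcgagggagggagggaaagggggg
Col18a1, chr10:77166549-77166780, minus strand: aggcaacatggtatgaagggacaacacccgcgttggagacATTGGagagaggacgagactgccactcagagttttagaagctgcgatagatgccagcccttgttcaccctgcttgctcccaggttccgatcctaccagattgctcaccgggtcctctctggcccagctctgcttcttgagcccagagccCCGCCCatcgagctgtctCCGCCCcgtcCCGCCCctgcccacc
Col4a2 and Col4a1 shared start, chr8:11312805-11312826, plus strand (the strand of Col4a2): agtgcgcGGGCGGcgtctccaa
The Col3a1 stretch held TATAAA, beginning 117 bases before the start, and neither of the other motifs. Col5a1 held GGGCGG on either strand at 205 and 73 bases before the start, and Col18a1 held CCAAT at 210 and GGGCGG at 61, 43 and 33 bases before the RefSeq start. That start is position 77166530 on chromosome 10, beyond the end of the printed stretch, since annotated exon bases between them are left out. The start shared by Col4a2 and Col4a1 held GGGCGG. A RefSeq window was found for 35 of the 44 members (38 windows). GGGCGG was in 22 of those 38 windows (57.9%), against 32.7% of all 32851 windows of the same 250 bases. CCAAT was in 13 (34.2%, against 33.8%) and TATAAA in 5 (13.2%, against 12.4%). A match describes letters only.

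Several collagen genes neighbour each other in the genome (GENCODE M21 coordinates, mm10), some of them for chains that pair in a molecule and some not. Col4a1 (chr8:11198423-11312826, minus strand) and Col4a2 (chr8:11312805-11449287, plus strand) lie head to head, and their annotated starts overlap by the 22 bases printed above. Col4a4 and Col4a3 lie head to head 71 bases apart on chromosome 1, and Col4a6 and Col4a5 1308 bases apart on chromosome X. Col3a1 (chr1:45311538-45349706) and Col5a2 lie tail to tail with 24.6 kb between them. Col6a2, Col6a1 and Col18a1 (chr10:77052178-77166548) follow each other on chromosome 10, with gaps of 85.2 and 326 kb. The other genes called below are Col1a1 (chr11:94936224-94953042), Col1a2 (chr6:4504814-4541544), Col5a1 (chr2:27886425-28039514) and Col12a1 (chr9:79598991-79718831). The sources used here do not give the strand setting of the counting. Col18a1 overlaps Slc19a1 on the opposite strand without shared exons, and Col10a1 and Col9a3 share exon bases with Nt5dc1 and Tcfl5 on the opposite strand, so their reads could be mixed.

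Collagen messages made up 1.11 to 1.12% of the counts in the Ctrl libraries and 1.06 to 1.10% in the Chaf1a cko libraries of the first set. Divided by the length of the principal transcript, Col4a1, whose product forms type IV molecules with that of Col4a2, was highest in Ctrl at 518 ± 9.72 CPM per kb, followed by Col4a2 at 306 ± 5.72. Then came the chains of types III and I, Col3a1 at 211 ± 1.69, Col1a1 at 187 ± 3.26 and Col1a2 at 117 ± 4.41 CPM per kb, and Col18a1 at 92.6 ± 4.38. None of these neighbours in the order overlapped in their libraries. Col6a2 (53.9 ± 0.336 CPM per kb) and Col5a2 (53.0 ± 2.31) overlapped, as did Col15a1 (32.9 ± 1.99) and Col6a1 (31.4 ± 2.02). In Ctrl 3M libraries Col4a1 (188 CPM per kb) and Col4a2 (136) again headed the order. Their ranges over libraries overlapped, although Col4a1 was above Col4a2 within each library. Next by mean were Col3a1 at 51.9 ± 24.4, Col15a1 at 39.8 ± 13.6 and Col4a5, an X-linked type IV chain, at 35.3 ± 16.1 CPM per kb. Their ranges over libraries overlapped one another. Within each library Col3a1 was above Col4a5, while the place of Col15a1 changed between libraries, so its order is not set. The tables were made and normalized separately, and the effect of the set was not tested.

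**Figure D1:**
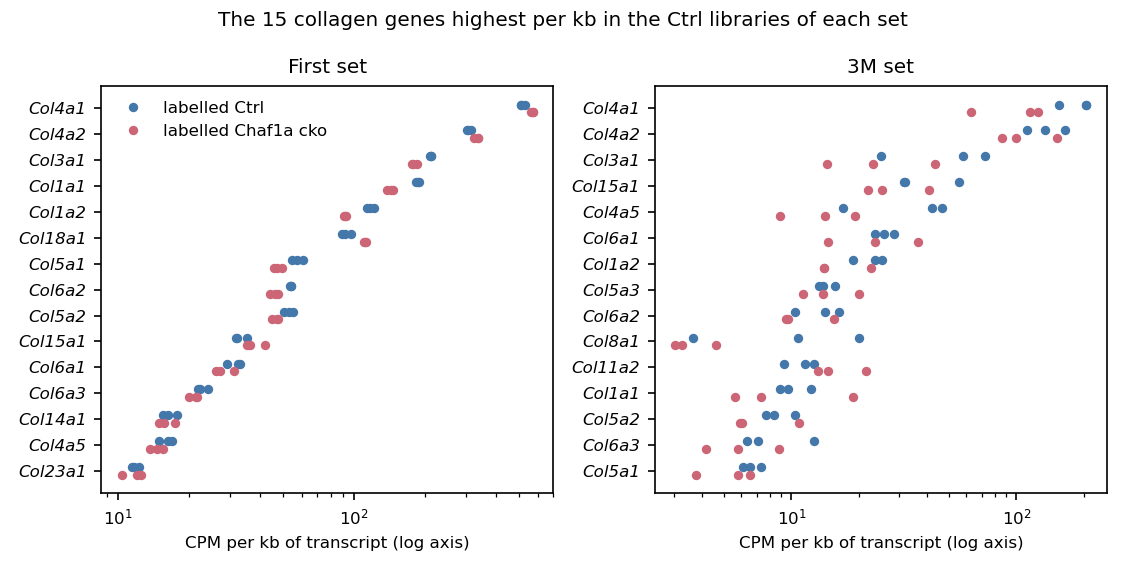
Level per kb of transcript (CPM per kb, log axis) of the 15 collagen genes highest in the Ctrl libraries of each set, with 1 point a library, blue for Ctrl and red for Chaf1a cko. Col4a1 leads both panels, at 518 CPM per kb in Ctrl and 188 in Ctrl 3M, and the points of a gene lie farther apart in the 3M panel.

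In the first set, 8 of the 44 collagens passed the threshold (edgeR quasi-likelihood test, Benjamini-Hochberg adjusted p below 0.05 over all 22965 genes tested), 3 higher and 5 lower in the libraries labelled Chaf1a cko. That is 18.2% of the members, against 1.18% of all genes (270 of 22965; 0.740% higher and 0.435% lower). All 8 were among the 14 members with a mean of at least 100 CPM, and 7.80% of the 1783 genes at such levels passed. By class, 4 of 11 fibrillar genes fell and 0 rose, 2 of 6 type IV genes rose and 0 fell, none of the 6 type VI genes passed (2 lower at an unadjusted p below 0.05), and 1 of the 21 others rose and 1 fell. The median log2 fold change was -0.23 for fibrillar, -0.12 for type IV, -0.17 for type VI and -0.12 for the other genes, beside -0.01 over all genes tested. Of the 44 log2 fold changes 33 were below 0 (50.9% of all genes). An unadjusted p below 0.05 was reached by 17 members (10.1% of all genes), 12 of them among the 14 at 100 CPM or more (30.1% of such genes). The libraries of the groups did not overlap for 3 higher members (8.33% of all genes) and 13 lower ones (7.85%). DESeq2 called 11 members and 4.21% of the genes to which it gave an adjusted p. Leaving out Chaf1a cko replicate 1, or Chaf1a cko replicate 2, lowered the count of fallen collagens from 5 to 3, and leaving out Ctrl replicate 2 lowered the count of risen ones from 3 to 1. Col1a1, Col1a2, Col3a1 and Col18a1 passed in all 13 settings run.

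**Figure D2:**
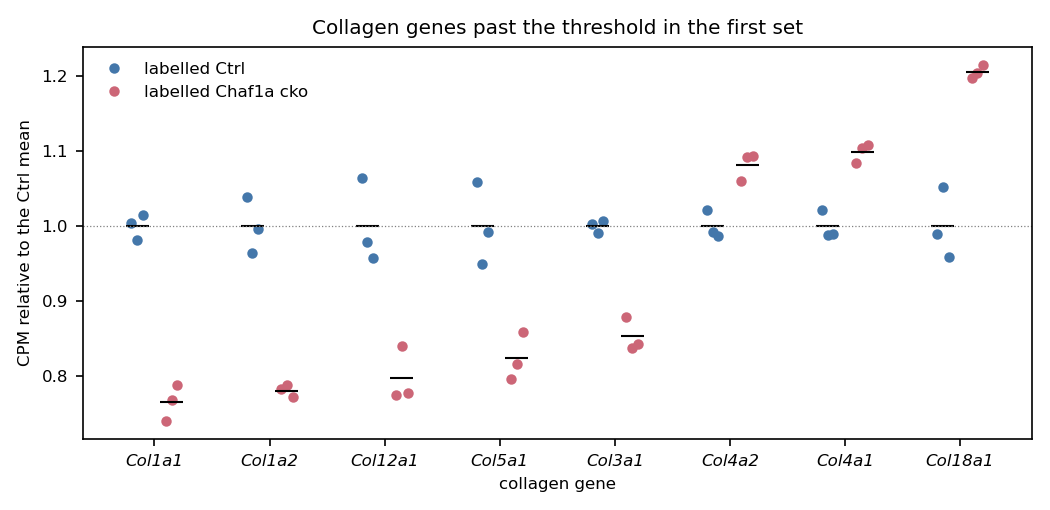
CPM of each library divided by the Ctrl mean of the gene, for the 8 collagen genes past the threshold in the first set, with blue points for Ctrl, red points for Chaf1a cko and bars for group means. Chaf1a cko points of Col1a1, Col1a2, Col12a1, Col5a1 and Col3a1 all lie below the Ctrl points, and those of Col4a2, Col4a1 and Col18a1 all lie above them.

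The chains of type I collagen, the main fibre protein of the heart, fell together. Col1a1 was at 1111.0, 1084.9 and 1122.6 CPM in the Ctrl libraries and at 818, 849 and 871 CPM in the Chaf1a cko libraries. The 3 Chaf1a cko libraries were all below the lowest Ctrl library, with a log2 fold change of -0.39 (95% interval -0.46 to -0.31) and an edgeR adjusted p of 5.06e-06. Its partner Col1a2 was at 653, 606 and 626 CPM in Ctrl, against 491, 495 and 484 CPM in Chaf1a cko, again with no overlap. Its log2 fold change was -0.36 (SE 0.04, edgeR adjusted p 7.09e-05), so both chains moved by a like amount, and the log2 ratio of Col1a1 to Col1a2 counts differed by -0.03 (exact permutation test, p = 0.7).

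Col3a1, the chain of type III collagen that is found with type I in stretchable tissues such as vessel walls, was at 1179.0, 1165.5 and 1183.6 CPM in Ctrl, against 1033.1, 985 and 991 CPM in Chaf1a cko. The groups did not overlap, and the log2 fold change was -0.23 (SE 0.03, edgeR adjusted p 0.00063). The log2 ratio of Col3a1 to Col1a1 was 0.09 ± 0.01 in Ctrl and 0.25 ± 0.08 in Chaf1a cko, without overlap. With 3 libraries against 3, the exact permutation test cannot go below its value here, p = 0.1 (0.5 adjusted over the 10 ratios tested). Col5a1, a chain of the minor collagen V that starts fibril assembly, was at 514, 461 and 482 CPM in Ctrl, against 387, 396 and 417 CPM in Chaf1a cko. All Chaf1a cko libraries were lower (log2 fold change -0.28, SE 0.05, edgeR adjusted p 0.00504). This gene no longer passed without Chaf1a cko replicate 1 (log2 fold change -0.26) or without Chaf1a cko replicate 2 (-0.27).

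Of the 7 fibrillar genes that did not pass, Col5a2, the partner of Col5a1, had values in the same order, 352, 336 and 367 CPM in Ctrl, against 316, 314 and 297 CPM in Chaf1a cko (log2 fold change -0.19, edgeR adjusted p 0.108). It passed with DESeq2 and with a filter at 10 CPM in at least 3 libraries. Col5a3 was at 17.2 ± 0.93 CPM in Ctrl, against 11.8 ± 2.00 CPM in Chaf1a cko, with no overlap (log2 fold change -0.54, 95% interval -0.94 to -0.15, adjusted p 0.273 by edgeR). The cartilage-type chains Col2a1, Col11a1 and Col11a2 had Ctrl means of 6.81, 32.6 and 21.6 CPM, and Col24a1 and Col27a1 had 9.33 and 21.2 CPM. The fitted log2 fold changes of these 5 ran from -0.26 to 0.08 with intervals that held 0. The fibrillar genes that passed were 4 of the 5 with a mean of at least 100 CPM.

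The paired chains of the common type IV molecule rose. Col4a1 was at 3498.3, 3384.5 and 3389.6 CPM in Ctrl, against 3712.1, 3779.6 and 3795.7 CPM in Chaf1a cko. The groups did not overlap, but the change was small, with a log2 fold change of 0.14 (95% interval 0.09 to 0.18, edgeR adjusted p 0.00297). Col4a2 was at 2016.1, 1957.6 and 1947.8 CPM in Ctrl, against 2091.0, 2155.7 and 2158.2 CPM in Chaf1a cko, and its log2 fold change was 0.11 (95% interval 0.06 to 0.17, edgeR adjusted p 0.0477). Its call was lost with DESeq2, with either other scaling, with no filter and in 5 of the 6 fits that left out 1 library, while its log2 fold change stayed between 0.09 and 0.13. Col4a1 did not pass without Ctrl replicate 2 (log2 fold change 0.13). The ratio of Col4a1 to Col4a2 counts was 1.73 to 1.74 in the Ctrl libraries and 1.75 to 1.78 in the Chaf1a cko libraries (exact permutation test, p = 0.1, adjusted p = 0.5).

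The other type IV chains, which replace the common ones in specialised membranes such as those of the kidney, were much scarcer and did not pass. Col4a6 was at 20.9, 21.2 and 20.7 CPM in Ctrl, against 9.98, 13 and 16.2 CPM in Chaf1a cko, with all Chaf1a cko libraries lower (log2 fold change -0.68, edgeR adjusted p 0.12). It passed with DESeq2 and with a filter at 10 CPM. Its head-to-head neighbour Col4a5 was at 105 ± 6.73 CPM in Ctrl, against 95.7 ± 5.96 CPM in Chaf1a cko, and these groups overlapped. Col4a3 and Col4a4 had means of 11.1 to 16 CPM in either group, overlapped and had intervals that held 0.

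Among the type VI genes, the 3 chains of the classic molecule were lower by point estimate, and none passed by edgeR with the main filter. Col6a2 was at 211, 214 and 213 CPM in Ctrl, against 184, 188 and 175 CPM in Chaf1a cko. The libraries did not overlap, and the adjusted p by edgeR was 0.0606 at a log2 fold change of -0.22, while the gene passed with DESeq2 and with the filter at 10 CPM. Col6a1 was at 132.6, 135 and 119 CPM in Ctrl, against 111, 127 and 107 CPM in Chaf1a cko, which overlapped (log2 fold change -0.17, edgeR adjusted p 0.484). Col6a3 was at 196, 200 and 217 CPM in Ctrl, against 193, 181 and 195 CPM in Chaf1a cko, where each Chaf1a cko library lay below each Ctrl library by a small margin (log2 fold change -0.11, edgeR adjusted p 0.578). Col6a4, Col6a5 and Col6a6, alternatives to the third chain, overlapped between groups, at Ctrl means of 15, 13.5 and 46.0 CPM.

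Of the remaining 21 genes, Col18a1, the source of endostatin in basement membrane zones, had the widest relative rise of the 3 that rose. It was at 439, 466 and 425 CPM in Ctrl, against 531, 534 and 539 CPM in Chaf1a cko. The Chaf1a cko libraries lay close together above all Ctrl libraries, with a log2 fold change of 0.27 (95% interval 0.18 to 0.36, edgeR adjusted p 0.00267). Its relative Col15a1 was at 165, 164 and 182 CPM in Ctrl, against 187, 217 and 182 CPM in Chaf1a cko, which overlapped, with a log2 fold change of 0.20 that did not pass (edgeR adjusted p 0.304).

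Col12a1, which binds to the surface of type I fibrils, was at 142, 130 and 128 CPM in Ctrl, against 103, 112 and 104 CPM in Chaf1a cko. The libraries did not overlap (log2 fold change -0.33, SE 0.07, edgeR adjusted p 0.0277), but the call was lost in each of the 6 fits that left out 1 library, with log2 fold changes from -0.37 to -0.28. Col14a1, another collagen on fibril surfaces, was at 94.1 ± 6.63 CPM in Ctrl, against 90.9 ± 7.10 CPM in Chaf1a cko and overlapped. Col9a1, a cartilage fibril chain, was at 14.2, 12.6 and 11.9 CPM in Ctrl, against 6.68, 8.82 and 6.31 CPM in Chaf1a cko. It did not pass here (log2 fold change -0.82, edgeR adjusted p 0.104) and passed with DESeq2 and with the filter at 10 CPM. Col8a1, a network collagen of vessel walls, was at 5.29, 10.7 and 5.67 CPM in Ctrl, against 8.06, 10.3 and 6.36 CPM in Chaf1a cko, overlapping. The 4 transmembrane collagens had Ctrl means of 13.8 to 66.8 CPM, all with fitted log2 fold changes below 0, from -0.65 for Col13a1 to -0.02 for Col23a1, and none passed.

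**Figure D3:**
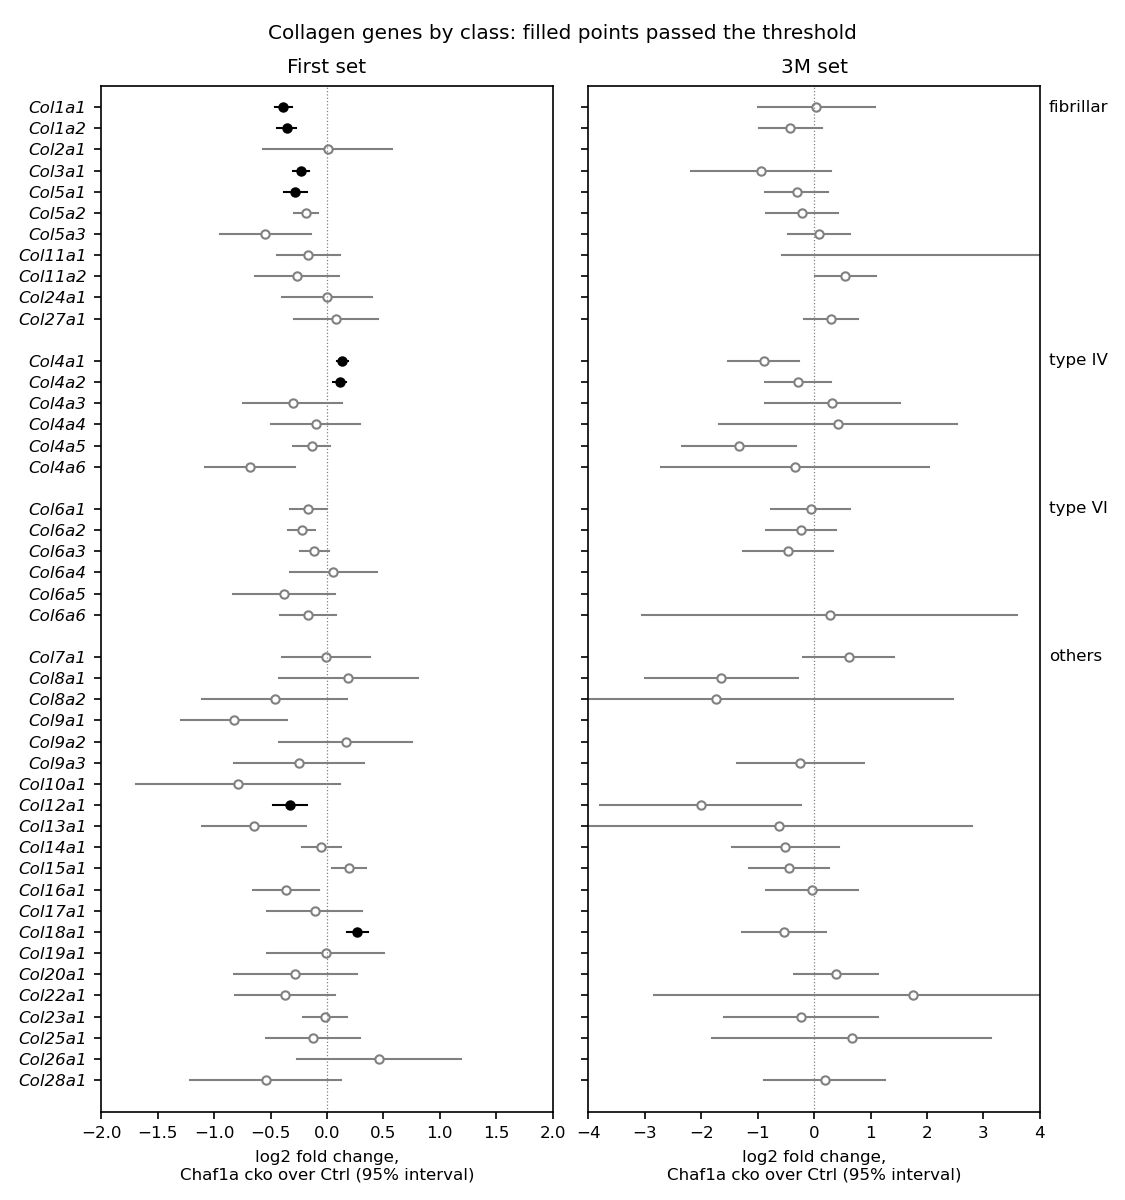
Log2 fold change of Chaf1a cko over Ctrl with its 95% interval for all collagen genes by class, in the first set (left, 44 genes) and the 3M set (right, 34 genes tested, axis limited to ±4, so some intervals and the Col11a1 point run off it). Filled points passed the threshold: 8 on the left and 0 on the right.

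These moves changed the makeup of the collagen messages more than their amount. The summed level of all members was 11120.0 ± 168 CPM in Ctrl, against 10876 ± 105 CPM in Chaf1a cko, a log2 ratio of -0.03, or -0.05 when scaled by library size alone. The groups did not overlap in this sum, at 10973 to 11303 CPM in Ctrl and 10754 to 10942 CPM in Chaf1a cko. Fibrillar messages summed to 3856 ± 84.5 CPM in Ctrl, against 3145 ± 11.7 CPM in Chaf1a cko, and their share of collagen counts was 34.7 ± 0.425% and 28.9 ± 0.265%. Type IV messages summed to 5554 ± 102 and 6032 ± 90.8 CPM, with shares of 49.9 ± 0.327% and 55.5 ± 0.325%. Shares of one total are tied to each other, so a fall of one class by itself raises the others. With Ctrl given first, type VI messages summed to 621 ± 4.88 against 553 ± 4.14 CPM, with shares of 5.58 ± 0.117% and 5.09 ± 0.0717%. Those of the other genes summed to 1090 ± 14.7 against 1145 ± 27.7 CPM, with shares of 9.80 ± 0.181% and 10.5 ± 0.222%. Each class differed between groups without overlap, both in its share and in summed CPM. A lack of overlap therefore did not set the fibrillar and type IV classes apart. Col4a1 alone accounted for 30.8% of the collagen counts in Ctrl and 34.6% in Chaf1a cko, and Col1a1 for 9.95% and 7.78%.

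**Figure D4:**
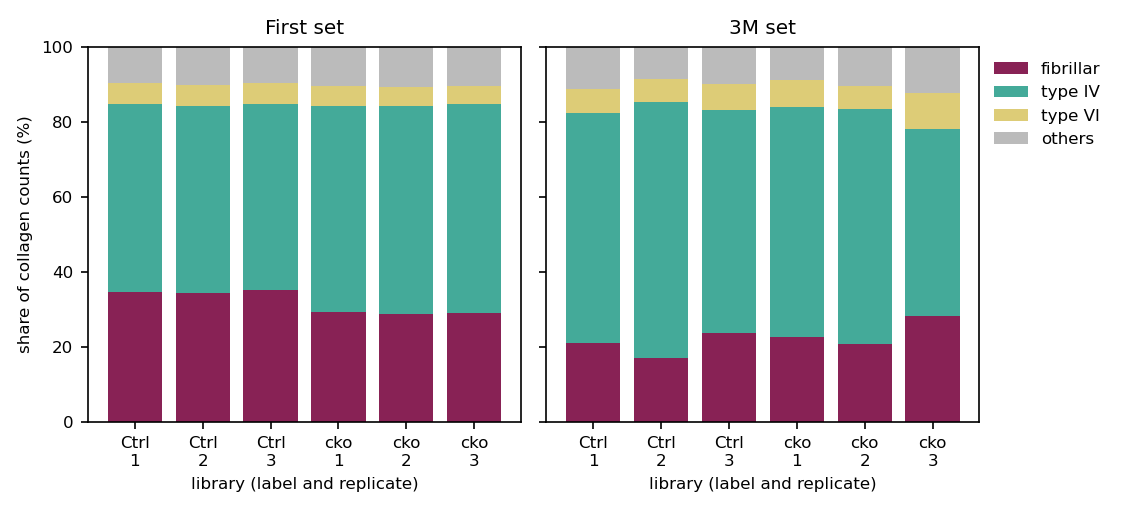
Share of collagen counts (%) taken by fibrillar, type IV, type VI and other genes in each library of the first set (left) and the 3M set (right), stacked from 0 to 100. In the first set fibrillar genes average 34.7% for Ctrl and 28.9% for Chaf1a cko, and in the 3M set Chaf1a cko replicate 3 has the lowest type IV share.

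The RNA is from bulk samples, in which fewer cells of a type and less RNA per cell cannot be told apart. Among 18 fibroblast markers, 1 rose (Vim, an intermediate filament gene, log2 fold change 0.23), 2 fell and 15 did not pass, with none at 0 (1.18% of all genes passed, and 7.80% of those at 100 CPM or more, where 4 of these markers lie). At an unadjusted p below 0.05, 8 fibroblast markers were lower and 3 higher (10.1% of all genes). The libraries did not overlap for 7 lower markers (7.85% of all genes) and 3 higher ones (8.33% of all genes). Of the 18 log2 fold changes 13 were below 0 (50.9% of all genes), and their median was -0.15. The 2 that fell encode matrix proteoglycans that bind collagen fibrils. Dcn was at 94.3 ± 2.09 CPM in Ctrl, against 60.2 ± 2.31 CPM in Chaf1a cko, and Lum at 25.0 ± 2.9 and 15.1 ± 1.13 CPM. The summed fibroblast level, mostly Vim, was 3457 to 3641 CPM in Ctrl and 3762 to 3810 CPM in Chaf1a cko. None of 15 endothelial markers passed (edgeR; 5 lower at an unadjusted p below 0.05), and none was at 0, with sums of 4413 to 4740 and 4469 to 4481 CPM. Of 12 mural and smooth muscle markers (4 at 100 CPM or more), Acta2 and Cnn1 rose and Myh11 fell, none was at 0, and the sums were 1501 to 1583 and 1846 to 1855 CPM. Of 15 cardiomyocyte markers (14 at 100 CPM or more) 3 rose and 5 fell, none was at 0, and the sums were 119476 to 124260 CPM in Ctrl and 116916 to 117732 CPM in Chaf1a cko. The part of these cell types in the collagen differences was not tested.

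Transcripts that differ between the sexes also differed in the first set. The 4 Y-linked genes measured, all of which rose, summed to 54.4 ± 5.89 CPM in Ctrl, against 123 ± 9.81 CPM in Chaf1a cko, while Xist, which is transcribed from the inactive X of female cells, ranged from 291 to 620 CPM in Ctrl and from 270 to 323 CPM in Chaf1a cko. Both kinds of transcript were thus present in all 6 libraries. For the collagens of the first set, this difference and the label cannot be told apart. In the 3M set Xist was at 0 to 3.98 CPM and the Y-linked sum at 355 to 646 CPM, so that all 6 libraries had the pattern of male cells.

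Of the 44 members, 34 had enough counts to be tested in the 3M set, and 0 passed (edgeR), where 0.0144% of all genes did (2 of 13925; 0.00718% higher and 0.00718% lower). DESeq2 also called 0 members, and 72 of its 13880 genes (0.519%). An unadjusted p below 0.05 was reached by 5 members, 4 of them lower, against 6.93% of all genes. Of the 7 members with a mean of at least 100 CPM, 2 reached it (11.5% of such genes) and 0 passed (0.00% of such genes). The fitted log2 fold change was below 0 for 21 of 34 members (52.0% of all genes). The 10 members not tested were Col2a1, Col6a4, Col6a5, Col9a1, Col9a2, Col10a1, Col17a1, Col19a1, Col24a1 and Col26a1. Of these, Col6a4, Col9a1 and Col10a1 had 0 counts in every library, which allows up to 0.182 to 0.284 CPM (3 counts of each library's total, counting error only). This limit takes counts as single events, and it would be higher if they came in steps of 4. The median log2 fold change was 0.04 for fibrillar, -0.31 for type IV, -0.15 for type VI and -0.25 for other genes, beside -0.02 over all genes tested. Without Chaf1a cko 3M replicate 3 the medians were -0.48 for fibrillar, -0.48 for type VI and -0.57 for other genes, and without Ctrl 3M replicate 3 that of type IV was 0.01. Without Chaf1a cko 3M replicate 1 the fibrillar median was 0.25. With a filter at 10 CPM in at least 3 libraries, which tests fewer members, the type IV median was -0.90. The spread was wide. For members with a mean of at least 100 CPM, the SD was 19.2% of the mean in Ctrl 3M by the median gene, and 34.6% for Chaf1a cko 3M (7 genes). The same medians were 4.55% for Ctrl, 3.53% for Chaf1a cko (14 genes).

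Type IV genes took the largest share of collagen counts in the 3M set too, 63.2 ± 4.56% for Ctrl 3M and 57.9 ± 7.15% for Chaf1a cko 3M. These shares overlapped, but the sums did not. Type IV messages summed to 2715, 2341 and 2034 CPM in Ctrl 3M, against 1461, 1531 and 1497 CPM in Chaf1a cko 3M. The log2 ratio of these sums was -0.66, against 0.12 in the first set, and the sums were not tested. The sums of the other classes overlapped. Col4a1 was at 1348.3, 1355.6 and 1022.4 CPM in Ctrl 3M, against 762, 824 and 416 CPM in Chaf1a cko 3M. Here the Chaf1a cko 3M libraries were all lower, but the difference did not pass, with a log2 fold change of -0.90 (95% interval -1.52 to -0.27, unadjusted p 0.0102, edgeR adjusted p 0.607). Col4a2 was at 1056.4, 861 and 720 CPM in Ctrl 3M, against 555, 641 and 974 CPM in Chaf1a cko 3M, which overlapped (log2 fold change -0.28, edgeR adjusted p 0.857). In Chaf1a cko 3M replicate 3 these paired chains parted: the ratio of Col4a1 to Col4a2 counts was 0.427 there and 1.28 to 1.57 in the other 5 libraries. The difference in log2 ratio between the groups was -0.64 (exact permutation test, p = 0.3), and it was -0.09 without that library. Col4a5 was named after its values were seen. It was at 305, 111 and 276 CPM in Ctrl 3M, against 125, 57.9 and 92.4 CPM in Chaf1a cko 3M, overlapping, with a log2 fold change of -1.33 (edgeR adjusted p 0.638).

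No fibrillar gene passed in the 3M set (edgeR; 1 of 9 tested had an unadjusted p below 0.05). Col3a1 was at 405, 140 and 322 CPM in Ctrl 3M, against 128, 80.1 and 242 CPM in Chaf1a cko 3M, which overlapped (log2 fold change -0.95, 95% interval -2.19 to 0.30, edgeR adjusted p 0.763). Col1a1 was at 72.7, 52.8 and 57.5 CPM in Ctrl 3M, against 43.4, 33.3 and 111 CPM in Chaf1a cko 3M. Chaf1a cko 3M replicate 3 was the highest of the 6 and the other Chaf1a cko 3M libraries were the lowest, so that the log2 fold change was 0.04 with all libraries and -0.67 without that one. Col1a2 was at 135, 101 and 126 CPM and at 74.5, 74.7 and 121 CPM (log2 fold change -0.43, edgeR adjusted p 0.766). Col5a1 was at 56.0 ± 5.19 CPM in Ctrl 3M, against 45.2 ± 12.1 CPM in Chaf1a cko 3M and overlapped.

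A pair of cartilage-type fibrillar chains, again named after their values were seen, had other patterns. Col11a2 was at 50, 62.0 and 67.8 CPM in Ctrl 3M, against 70.7, 115 and 78.4 CPM in Chaf1a cko 3M. It was the 1 collagen whose Chaf1a cko 3M libraries were all higher (log2 fold change 0.56, edgeR adjusted p 0.712), and 7.21% of all genes had such a pattern. The pattern of all Chaf1a cko 3M libraries being lower was seen for 2 members, Col4a1 and Col12a1, and for 6.89% of all genes. Col11a1 had 0 counts in Ctrl 3M replicates 1 and 2, 0.719 CPM in replicate 3, and 19.9, 4.11 and 0 CPM in Chaf1a cko 3M, so its level there came from 2 libraries.

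Type VI and the other classes overlapped as well, apart from Col12a1. Col6a1 was at 96.1, 106 and 117 CPM in Ctrl 3M, against 96.4, 59.7 and 150 CPM in Chaf1a cko 3M, and Col6a3 at 114, 63.8 and 57.3 CPM and at 37.4, 52.4 and 79.6 CPM. Col15a1 was at 287, 164 and 166 CPM in Ctrl 3M, against 113, 130 and 211 CPM in Chaf1a cko 3M (log2 fold change -0.44, edgeR adjusted p 0.808). Col8a1 was at 102, 18.6 and 54.7 CPM in Ctrl 3M, against 15.6, 16.7 and 23.6 CPM in Chaf1a cko 3M. The Ctrl 3M libraries differed widely among themselves and overlapped with the others (log2 fold change -1.65, edgeR adjusted p 0.682). Col18a1 was at 27.9, 22.4 and 29.8 CPM and at 12.3, 16 and 26.8 CPM. Col12a1 was at 7.88, 2.55 and 4.48 CPM in Ctrl 3M, against 0.844, 0.770 and 2.04 CPM in Chaf1a cko 3M, all lower (log2 fold change -2.01, 95% interval -3.79 to -0.24, edgeR adjusted p 0.712).

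**Figure D5:**
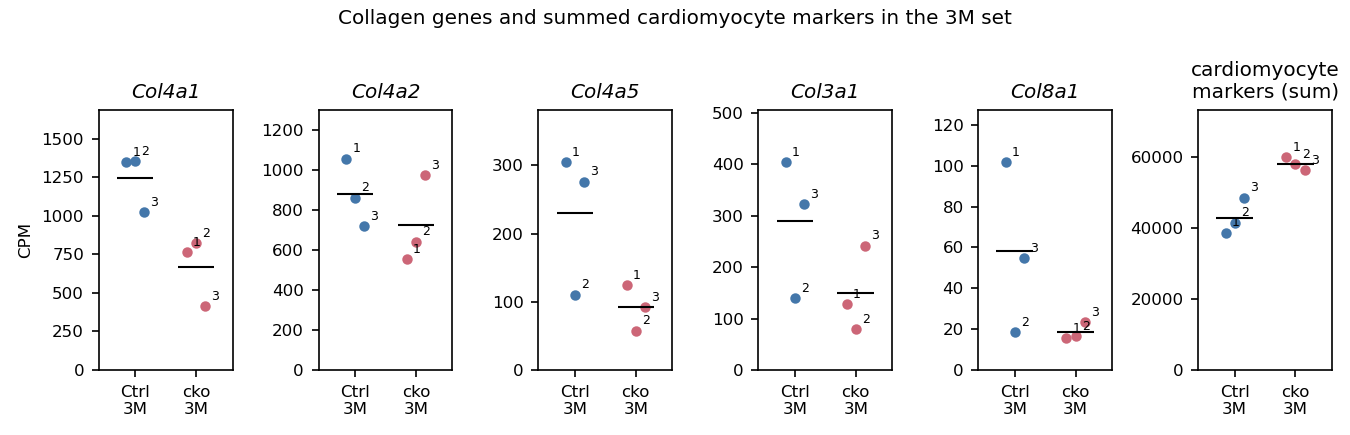
CPM in each 3M library of Col4a1, Col4a2, Col4a5, Col3a1 and Col8a1, and the summed CPM of 15 cardiomyocyte markers, with each axis from 0, numbers for replicates and bars for group means. Col4a1 is lower in all Chaf1a cko 3M libraries (416 to 824 CPM against 1022.4 to 1355.6), the other 4 genes overlap, and the marker sum is higher in all Chaf1a cko 3M libraries. Of the 15 markers, 9 have a log2 fold change above 0 and 6 below.

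None of the markers passed in the 3M set by edgeR, although 5 of 15 cardiomyocyte markers were higher and 5 of 12 macrophage markers lower at an unadjusted p below 0.05 (6.93% of all genes, and 11.5% of those at 100 CPM or more). The 15 cardiomyocyte markers summed to 38715 to 48584 CPM in Ctrl 3M and 56464 to 59963 CPM in Chaf1a cko 3M, with no overlap and none at 0. That sum is weighted to abundant genes, the highest with a mean of 21336 CPM. Of the 15 log2 fold changes, 9 were above 0 and 6 below, with a median of 0.07. The 12 macrophage markers summed to 488 to 580 and 314 to 394 CPM, none at 0, and the 7 epicardial markers to 67.8 to 126 and 23.6 to 48.8 CPM, with Upk3b and Msln at 0. The sums of fibroblast markers (4019 to 4858 and 3460 to 4111 CPM), endothelial markers (12059 to 17900 and 13250 to 14029 CPM) and mural markers (1281 to 1825 and 1215 to 1421 CPM) overlapped, with none at 0. The summed collagen level was 3749 ± 571 CPM in Ctrl 3M, against 2612 ± 347 CPM in Chaf1a cko 3M, without overlap. The part of these markers in the collagen values was not tested.

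Whether the effect differed between the sets was tested as the interaction of set and label over all 12 libraries. None of the 44 members passed by edgeR or by DESeq2, where edgeR called 0.0658% of 22803 genes (15), and 10 members had an unadjusted p below 0.05 (9.47% of all genes). Only 34 of the 44 had enough counts to be tested in the 3M set alone. For Col6a4, Col9a1 and Col10a1, at 0 in every 3M library, no difference could be estimated. Of the 10, Col17a1 and Col6a5 had counts in a single 3M library (18 and 12 counts). The fit also gave each gene a common spread for both sets, although the 3M libraries spread more widely. Col4a1 had a difference of effect of -0.99 on the log2 scale (95% interval -1.65 to -0.33, unadjusted p 0.00691, edgeR adjusted p 0.395), and Col18a1 one of -0.77 (edgeR adjusted p 0.526). Thus a rise of Col4a1 in the first set and its lower values in the 3M set were not shown to differ after adjustment.

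Genes that fold, cut, link, bind and degrade collagen were counted in lists, in the order of their roles. Of 23 genes that fold and modify the chains, such as Serpinh1, the collagen chaperone, none passed in the first set (edgeR; 3 at an unadjusted p below 0.05, none by DESeq2), with a median log2 fold change of 0.05. Serpinh1, named here for its role, was at 258 ± 36.3 CPM in Ctrl, against 267 ± 39.4 CPM in Chaf1a cko. Sparc, a collagen-binding matrix protein and the most abundant of this list, was at 474, 452 and 941 CPM in Ctrl, against 473, 463 and 486 CPM in Chaf1a cko, with Ctrl replicate 3 apart from the other 5 libraries. Of 13 genes for propeptide cleavage and cross-linking, none passed (3 at an unadjusted p below 0.05), with a median of -0.16, and DESeq2 called 1 lower. Of 15 genes of collagen turnover none passed (2 at an unadjusted p below 0.05), with a median of -0.09, and DESeq2 called 1 lower. Over all genes tested, 10.1% had an unadjusted p below 0.05 by edgeR. DESeq2 called 4.21% of the genes to which it gave an adjusted p.

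Of 9 collagen receptor genes, 2 rose (0.740% of all genes did), both above 100 CPM on average, where 7.80% of genes passed. These encode the subunits of integrin α1β1, which binds collagen. Itga1 was at 99 ± 6.17 CPM in Ctrl, against 124 ± 5.76 CPM in Chaf1a cko (log2 fold change 0.33, edgeR adjusted p 0.0320), and Itgb1, shared by many integrins, at 751 ± 29.0 and 848 ± 28.1 CPM (0.17, edgeR adjusted p 0.0355). Of 16 basement membrane partners of type IV collagen, 2 rose and 1 fell, all 3 among the 11 with a mean of at least 100 CPM, where 7.80% of all genes passed (1.18% at any level). At an unadjusted p below 0.05, 5 were higher and 2 lower (10.1% of all genes, and 30.1% of those at 100 CPM or more). The laminin chain Lamb1 was at 470 ± 18.5 CPM in Ctrl, against 553 ± 2.80 CPM in Chaf1a cko (0.24, edgeR adjusted p 0.00667), and Nid1, which links laminin to type IV collagen, at 533 ± 22.7 and 604 ± 3.90 CPM (0.18, edgeR adjusted p 0.0403). Lama2, the laminin α chain of muscle, fell from 222 ± 2.95 to 184 ± 8.45 CPM (log2 fold change -0.27, edgeR adjusted p 0.0218). Hspg2, which encodes perlecan and was the most abundant of this list, was at 3102 ± 59.3 and 3149.6 ± 89.5 CPM and did not pass. Across these lists the 4 rises were reduced to 0 when Chaf1a cko replicate 1, Chaf1a cko replicate 2 or Ctrl replicate 2 was left out and to 1 when Chaf1a cko replicate 3 or Ctrl replicate 3 was, and the fall of Lama2 was lost in each of the 6 fits that left out 1 library. In the 3M set none of the 5 lists had a gene past the threshold by edgeR or DESeq2. Each had 0 or 1 gene at an unadjusted p below 0.05 (6.93% of all genes).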

How the data were processed

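The authors deposited gene counts, not normalized and in whole numbers, in 2 tables of 6 libraries with a row for each gene symbol. Per the labels' protocols, total RNA of cultured cardiomyocytes was extracted with TRIzol and made into stranded libraries after ribosomal RNA removal. The submitters' processing notes name FastQC, Trimmomatic, HISAT2 and mm10. Not given in the sources used here are the program, annotation and strand setting of the counting.

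Libraries were grouped by their titles, and the 3M columns were matched by the descriptions. Each table was fitted alone on all its genes in R 4.3.3 with edgeR 4.0.16: filterByExpr (minimum count 10, minimum total 15), TMM scaling, robust glmQLFit and glmQLFTest, as a two-sided test. Adjusted p-values are Benjamini-Hochberg's, called below 0.05. The filter kept 22965 and 13925 genes. The interaction of set and label was fitted over all libraries. Chain ratios (counts plus a pseudocount of 1) were compared by exact permutation of libraries, two-sided, with a smallest possible p of 0.1. Replicates differed by more than counting noise (chi-square per degree of freedom 9.09 to 114). Alternatives were DESeq2 1.42.0, other scalings and filters, a replicate block, and each library left out.

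Members and gene lists were chosen with earlier results of these data known. Named members are those past the threshold and the 2 highest by mean CPM in each class and table; other members are named for their role or level, or after their values were seen. Lengths are of the longest APPRIS-principal transcript in GENCODE M21, where all 44 symbols were found.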

Additional observations from a re-analysis of the deposited data

How the results depend on the processing

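Direction and call of Col1a1, Col1a2, Col3a1 and Col18a1 in the first set held in all 13 settings, and no collagen passed in the 3M set, nor for the difference between the sets, in any setting run. In the first set, 9 collagens fell instead of 5 with the DESeq2 Wald test, and 9 with a filter at 10 CPM in at least 3 libraries, which tests fewer genes. Both added Col4a6, Col5a2, Col6a2 and Col9a1. The genes of the collagen pathway lists that rose numbered 2 instead of 4 with library size alone, and those that fell 3 instead of 1 with DESeq2 and 2 with the filter at 10 CPM. The fibrillar median log2 fold change of -0.23 became -0.25 with library size alone and -0.29 with the filter at 10 CPM, which drops scarce members. With library size alone, the log2 ratio of summed levels was -0.052 for all collagens and -0.19 for type VI, and the median of all genes moved from -0.01 to -0.03. The 3M type IV median was -0.90 with the filter at 10 CPM. Where no construction is named, the cause was not tested.

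Libraries with the same replicate number did not deviate together: the correlations of their deviations were -0.01, 0.02 and 0.03 in the first set and -0.000375, 0.02 and 0.01 in the 3M set, so the numbers were not taken to pair libraries, and not every library correlated best with its own number. With a replicate block, 6 collagens passed in the first set instead of 8 (without Col12a1 and Col4a2), 1 gene of the pathway lists rose instead of 4, and the 3M log2 fold change of Col1a1 was -0.16 instead of 0.04.

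Leaving out 1 library at a time gave 1 to 3 risen and 3 to 4 fallen collagens in the first set, and 0 to 3 risen and 0 fallen genes of the pathway lists. First-set class medians ranged from -0.24 to -0.18 (fibrillar), -0.18 to -0.079 (type IV) and -0.20 to -0.048 (others). Those of the 3M set ranged from -0.48 to 0.25 (fibrillar), -0.53 to 0.010 (type IV), -0.48 to 0.047 (type VI) and -0.57 to -0.051 (others). Signs of values that had not passed turned for Col8a1 in the first set (-0.0037 to 0.58), for Col1a1 (-0.67 to 0.34) and Col6a1 (-0.45 to 0.21) in the 3M set, and for the 3M log2 ratio differences of Col6a1 to Col6a2 (-0.13 to 0.32) and Col5a1 to Col5a2 (-0.29 to 0.045).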
